A study of Mus musculus with 20 samples.

Results

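Tbx21, Eomes, Runx3, Hlx, Stat4, Ifng, Il12rb1, Il12rb2 and Cxcr3 form a Th1-like programme that was followed here across 7 groups of mouse regulatory T (Treg) cells on 20 expression arrays. These 9 genes were found by symbol in the deposited table, which holds 21928 gene symbols, and each has 1 probe set. All 9 passed a filter on dim probe sets, which left 12462 genes for testing. Ifng passed it on 3 arrays, all of DMSO_48h, and Eomes on 5 arrays of DMSO_18h and DMSO_48h. Tbx21 passed it on 12 arrays of FTI_18h, DMSO_18h, FTI_48h and DMSO_48h, and Il12rb1 on 17 arrays, none of them of DMSO_0h. The remaining members passed it on all 20 arrays. A gene that passes only where it is high has to differ between groups, so the counts of members below describe these genes and are not a sample of T cell genes. The limma p-values of such a gene, between groups where it passed and groups where it did not, share this selection. They describe its values and are not independent evidence.

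The groups were GGTI_18h with 2 arrays and FTI_18h, DMSO_18h, GGTI_48h, FTI_48h, DMSO_48h and DMSO_0h with 3 arrays each. The sorted population was CD4+YFP+CD44loCD62Lhi, which the labels call cTreg, a surface pattern of resting cells. It came from spleen and pLN of C57BL/6J animals that carry Foxp3YFP-Cre, an allele that marks Foxp3-expressing cells with YFP and gives them Cre, and every group shares this allele. The labels name no stimulation for DMSO_0h. The other groups received anti-CD3/28 antibodies at 10 ug/ml with IL-2 at 200 U/ml for 18 or 48 h. FTI and GGTI are prenylation inhibitors, and the labels place them in the culture 2 h before stimulation and during it. For DMSO arrays the labels name no such pretreatment. Prenylation is a lipid modification, by farnesyl or geranylgeranyl groups, that lets small GTPases such as Ras act at membranes. Neither the names of the compounds nor their doses are stated, so differences between GGTI and FTI are differences at unknown doses. No group was cultured without stimulation, and culture time, IL-2 and antibody effects cannot be told apart. Whether arrays of a group come from separate mice is not stated, and p-values measure the spread between arrays, which may be technical.

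In conventional CD4 T cells the Th1 programme starts when the T cell receptor, interferon-gamma and interleukin-12 act together. T-bet, the product of Tbx21, is its master transcription factor, and it induces the cytokine gene Ifng, the chemokine receptor gene Cxcr3 and the receptor chain gene Il12rb2. The receptor for interleukin-12, made of Il12rb1 and Il12rb2, signals through Stat4. Eomes, Runx3 and Hlx are transcription factors that act with T-bet at Th1 and cytotoxic genes. Some Treg cells use T-bet and Cxcr3 to restrain Th1 responses.

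Foxp3, which defines the sorted cells, averaged 10.67 to 11.20 on the log2 scale in the 7 groups. It is on a list of 10 Treg and CD4 T cell markers, 9 of them tested. Il2ra averaged 5.04 in DMSO_0h, below the negative-control level of 5.64, and 6.89 to 7.66 in the other groups. Ikzf2 averaged 10.09 in DMSO_0h and 9.19 in DMSO_48h. Against DMSO_48h, limma called 5 of the 9 higher and 1 lower in GGTI_48h (18.4% and 21.9% of all genes). In FTI_48h it called 2 higher and 0 lower (4.58% and 3.08% of all genes). Of 11 CD8 T and NK cell markers, 7 did not exceed the negative controls' median on any array, among them the NK receptor genes Klrb1c, Ncr1 and Klrd1. The other 4, Cd8b1 (group means 7.93 to 8.71), Ctsw (7.11 to 8.27), Cd8a (6.04 to 6.66) and Fcgr3 (5.78 to 6.20), were tested, and with GGTI at 48 h limma called 1 higher and 1 lower, the lower one being Ctsw, which is also among the effector genes below. Cd8b1 averaged 8.71 in GGTI_48h and 8.30 in FTI_48h, against 7.93 in DMSO_48h. The mean of the 11 markers was 4.64 to 4.83 in GGTI_48h and 4.64 to 4.78 in FTI_48h, against 4.59 to 4.81 in DMSO_48h. Over all arrays the B cell list averaged 5.14 to 5.88 and the myeloid list 5.53 to 6.06, but single genes of both lists stood above these means. Cst3 averaged 9.98 to 10.76 in the 7 groups. Cd74 averaged 8.42 in DMSO_0h, 6.77 in GGTI_18h, 7.41 in GGTI_48h, 8.28 in FTI_48h and 7.66 in DMSO_48h. Cd79a averaged 7.05 in DMSO_0h and 5.98 in DMSO_48h. The red cell list averaged 5.83 to 6.32 in GGTI_48h, against 5.44 to 5.69 in DMSO_48h, with Hba-a1 at 7.98 in GGTI_48h and 5.92 in DMSO_48h, and it was highest in DMSO_0h at 6.28 to 6.97. The part of these transcripts in the results below was not tested. In these bulk samples, fewer expressing cells and less RNA per cell cannot be told apart. Where a level is near that of the negative-control probe sets, the size of a change is a lower bound. The medians of these controls were 5.58 to 5.67 on DMSO_0h arrays and 4.94 to 5.32 on the others.

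Promoter windows for 8 of the 9 genes were in the RefSeq table of build GRCm38.p6, Il12rb1 being named only, and they gave 10 windows of 250 bases before a transcription start. Each window was searched on both strands for a T-box motif (TCACACC), a RUNX motif (TGTGGT) and a STAT motif (TTCNNNGAA), and no window held matches of more than 1 of these motifs. Of all 32851 windows, 3.33% hold the T-box motif, 14.0% the RUNX motif and 7.02% the STAT motif. The 3 windows below are shown because Ifng and Il12rb2 are the 2 members with the STAT motif, and because a Runx3 window holds the motif of its own family 2 times. The other Runx3 window, chr4:135152295-135152544, holds 0 RUNX matches. Capitals mark the matches.
Ifng, chr10:118440796-118441045, plus strand: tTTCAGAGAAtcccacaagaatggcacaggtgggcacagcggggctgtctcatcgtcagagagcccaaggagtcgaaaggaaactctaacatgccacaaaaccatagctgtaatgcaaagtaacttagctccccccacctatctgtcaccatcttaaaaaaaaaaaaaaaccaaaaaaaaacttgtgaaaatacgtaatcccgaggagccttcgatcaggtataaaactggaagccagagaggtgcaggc
Il12rb2, chr6:67376189-67376438, minus strand: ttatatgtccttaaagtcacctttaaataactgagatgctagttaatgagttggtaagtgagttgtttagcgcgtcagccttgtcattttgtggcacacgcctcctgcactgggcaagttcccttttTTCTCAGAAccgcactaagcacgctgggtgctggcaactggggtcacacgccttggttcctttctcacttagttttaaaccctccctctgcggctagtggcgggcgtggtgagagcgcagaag
Runx3, chr4:135120395-135120644, plus strand: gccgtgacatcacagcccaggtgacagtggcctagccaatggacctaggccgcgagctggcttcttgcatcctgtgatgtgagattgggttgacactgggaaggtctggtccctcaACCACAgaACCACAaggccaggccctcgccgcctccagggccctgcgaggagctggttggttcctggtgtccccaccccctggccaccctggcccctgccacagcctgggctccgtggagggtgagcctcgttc
The STAT match starts 249 bases before the Ifng start and 123 bases before the Il12rb2 start. The RUNX matches start 134 and 126 bases before the Runx3 start, and Cxcr3 has 1 RUNX match 110 bases before its start. The T-box letters are in 0 of the 10 windows, which says only that they are not in these bases. A match is a description of letters and not a binding site.

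In DMSO culture Tbx21 was the member with the largest rise by 48 h. Its log2 values were 5.45, 4.91 and 5.596 in DMSO_0h, then 7.51, 7.89 and 8.04 in DMSO_18h, then 9.58, 9.40 and 9.32 in DMSO_48h. The 3 groups did not overlap, and each later one lay above the earlier. The DMSO_0h mean of 5.32 was below the negative-control level of 5.64. Tbx21 was therefore 17.3-fold higher in DMSO_48h than in DMSO_0h with a size bounded by background (log2 4.11 ± 0.27, SE here and below; limma adjusted p = 1.81e-10).

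Eomes, the T-box relative of T-bet, rose later. Its values were 5.93, 5.15 and 5.93 in DMSO_0h, 5.91, 6.58 and 6.25 in DMSO_18h, and 8.01, 8.56 and 7.96 in DMSO_48h. The DMSO_0h and DMSO_18h arrays overlapped, while all DMSO_48h arrays were above both. The gain at 18 h was log2 0.58 ± 0.21 (limma adjusted p = 0.0226), a call lost without DMSO_0h replicate 2 or DMSO_18h replicate 2. From 18 to 48 h Eomes gained log2 1.93 ± 0.21 (limma adjusted p = 1.87e-06).

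Ifng, the signature cytokine gene, was above the negative-control median in 1 of the 7 groups. Even there, in DMSO_48h, its values exceeded only 72.6 to 82.9% of the negative-control probe sets. Its DMSO_48h values were 6.93, 6.54 and 6.38, against 4.81, 4.84 and 4.30 in DMSO_18h. Between these times it rose by log2 1.97 ± 0.16 (limma adjusted p = 7.45e-08). Ifng was tested only because of its DMSO_48h arrays, so its p-values for DMSO_48h against any other group are not independent of the filter. The mean level in the other 6 groups was 4.04 to 4.65, below their negative-control medians, so the order of those 6 groups carries no information and the rise is bounded by background.

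The interleukin-12 receptor chains followed different courses. Il12rb1, the chain shared with the interleukin-23 receptor, was at 6.04, 5.87 and 5.21 in DMSO_0h, 8.45, 8.73 and 8.73 in DMSO_18h, and 8.998, 8.91 and 8.97 in DMSO_48h. Most of its rise was thus present at 18 h (log2 2.93 ± 0.17, limma adjusted p = 3.36e-11), and the further 0.33 ± 0.17 to 48 h did not pass the test (limma adjusted p = 0.144). The DMSO_0h mean of 5.705 was near the negative-control level of 5.64, so the rise from DMSO_0h is a lower bound in size. Il12rb2, the chain that recruits Stat4, was at 7.96, 7.66 and 7.78 in DMSO_0h, 8.28, 8.49 and 8.37 in DMSO_18h, and 10.17, 10.19 and 10.24 in DMSO_48h. Its gain was log2 0.58 ± 0.15 by 18 h (limma adjusted p = 0.00314) and a further 1.82 ± 0.15 by 48 h (limma adjusted p = 1.06e-07).

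Stat4 went the other way from its receptor. The values were 8.74, 8.61 and 8.92 in DMSO_0h, 7.46, 7.31 and 6.86 in DMSO_18h, and 6.40, 6.64 and 6.66 in DMSO_48h, with no overlap between the 3 times. Stat4 was lower in DMSO_48h than in DMSO_0h by log2 -2.19 ± 0.12 (limma adjusted p = 1.26e-11). Its group means ran against those of Il12rb1, with a Pearson r of -0.95 over 7 means, which share arrays and one normalization and are given as a description.

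Runx3, Hlx and Cxcr3 had smaller changes. Runx3, which cooperates with T-bet at Ifng, was at 8.09 to 8.77 in DMSO_18h and 8.26 to 8.75 in DMSO_0h. In DMSO_48h it was at 9.28 to 9.53, a rise over DMSO_18h of log2 1.07 ± 0.16 (limma adjusted p = 6.46e-05). Hlx, a homeobox factor of Th1 cells, was 0.38 ± 0.09 lower in DMSO_48h than in DMSO_0h on the log2 scale (-0.38, limma adjusted p = 0.00162). Cxcr3, the receptor for the interferon-induced chemokines Cxcl9 and Cxcl10, differed by log2 -0.43 ± 0.12 in the same comparison (limma adjusted p = 0.00357). Its 3 DMSO_48h values, 7.11 to 7.15, all lay below the lowest DMSO_0h value of 7.42.

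Of the 9 genes, limma called 6 higher and 3 lower in DMSO_48h than in DMSO_0h, where 74.7% of all tested genes were called, 38.5% higher and 36.2% lower. At 18 h against 0 h it called 4 higher and 1 lower (60.9% of all genes, 33.7% higher and 27.2% lower). From 18 to 48 h it called 5 higher and 1 lower (29.1% of all genes, 16.4% higher and 12.6% lower). Being called was thus common in the first 2 comparisons.

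**Figure D1:**
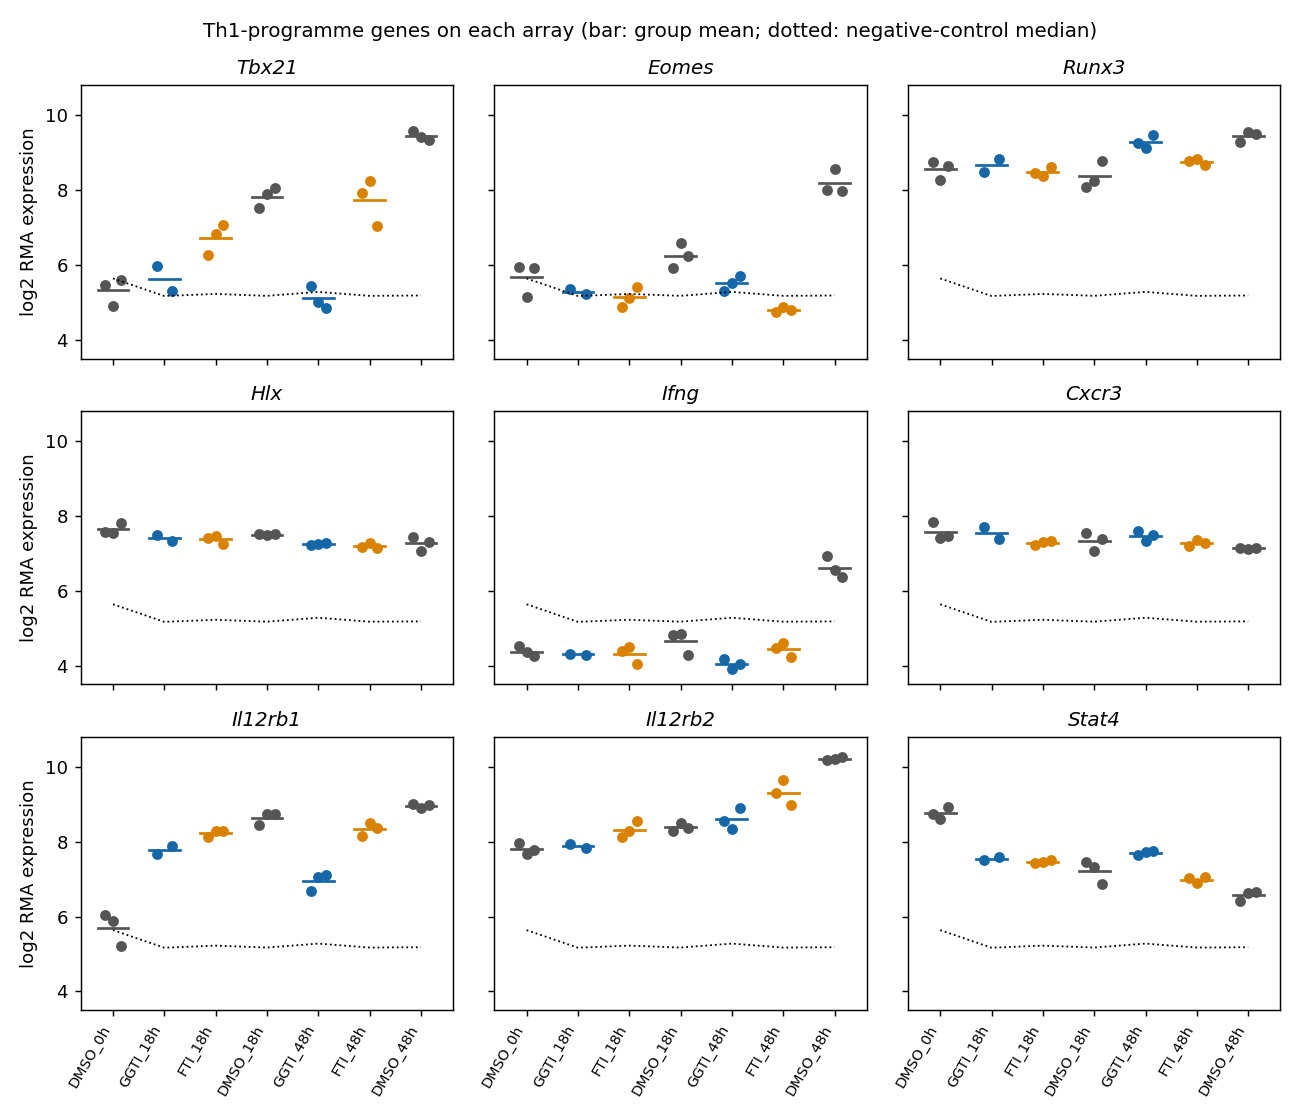
Log2 RMA expression of the 9 genes on each of the 20 arrays, with 1 point per array (blue for GGTI, orange for FTI, grey for DMSO), a bar for the group mean (2 arrays in GGTI_18h and 3 in each other group) and a dotted line for the group's mean negative-control median. Tbx21 stands between 9.32 and 9.58 in DMSO_48h, and between 4.85 and 5.44 in GGTI_48h, at the level of the negative controls, while Ifng is above that line in DMSO_48h alone.

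With GGTI the rise of Tbx21 was missing at 48 h. Its values were 5.44, 5.02 and 4.85 in GGTI_48h, against 9.58, 9.40 and 9.32 in DMSO_48h. All GGTI arrays lay over 3 log2 units below every DMSO array, at the level of the negative controls. The difference was log2 -4.33 ± 0.27, a lower bound in size since GGTI_48h was at background (limma adjusted p = 7.78e-10). Against DMSO_0h, GGTI_48h differed by log2 -0.22 with a 95% interval of -0.79 to 0.36 (limma adjusted p = 0.496).

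With FTI Tbx21 was reduced to an intermediate level. Its FTI_48h values were 7.90, 8.24 and 7.03, against 9.58, 9.40 and 9.32 in DMSO_48h, with no overlap. The difference was log2 -1.71 ± 0.27 (limma adjusted p = 0.000572), and FTI_48h remained log2 2.41 ± 0.27 above DMSO_0h (limma adjusted p = 3.36e-07). The FTI_48h mean of 7.73 stood next to the DMSO_18h mean of 7.81, and these neighbours did not pass the test (limma adjusted p = 0.869).

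Eomes was at or near background with both inhibitors at 48 h, so its differences from DMSO_48h are lower bounds in size and do not rank the inhibitors. Its values were 4.74, 4.89 and 4.79 in FTI_48h, against 8.01, 8.56 and 7.96 in DMSO_48h, a difference of log2 -3.37 ± 0.21 (limma adjusted p = 1.48e-08). In GGTI_48h they were 5.30, 5.52 and 5.71, which is log2 -2.67 ± 0.21 relative to DMSO_48h (limma adjusted p = 1.11e-08). FTI_48h lay below the negative-control median and below DMSO_0h by log2 -0.86 ± 0.21 (limma adjusted p = 0.00127). DMSO_0h arrays carry the higher negative-control medians, and the part of that in this last difference was not tested.

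Ifng was at 4.17, 3.92 and 4.03 in GGTI_48h and at 4.48, 4.59 and 4.22 in FTI_48h, against 6.93, 6.54 and 6.38 in DMSO_48h. Both inhibitor groups thus sat below the negative-control medians and clear of all DMSO_48h arrays. The differences were log2 -2.57 ± 0.16 with GGTI (limma adjusted p = 5.38e-10) and -2.18 ± 0.16 with FTI (limma adjusted p = 8.2e-08), both bounded by background.

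Both receptor chains were lower with either inhibitor at 48 h. Il12rb1 was at 6.67, 7.06 and 7.10 in GGTI_48h, against 8.998, 8.91 and 8.97 in DMSO_48h, which is log2 -2.02 ± 0.17 (limma adjusted p = 2.05e-08). In FTI_48h it was at 8.15, 8.51 and 8.36, or log2 -0.62 ± 0.17 (limma adjusted p = 0.0256), a call that 5 of the 6 single-array omissions removed. Even with GGTI the receptor gene stayed log2 1.24 ± 0.17 above DMSO_0h (limma adjusted p = 2.93e-06), a lower bound in size since DMSO_0h was near background. Il12rb2 was at 8.54, 8.34 and 8.90 in GGTI_48h and at 9.30, 9.63 and 8.97 in FTI_48h, against 10.17, 10.19 and 10.24 in DMSO_48h. No arrays of these 3 groups overlapped. The differences were log2 -1.61 ± 0.15 with GGTI (limma adjusted p = 1.31e-07) and -0.90 ± 0.15 with FTI (limma adjusted p = 0.00091).

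Stat4, which fell in DMSO culture, was held higher by GGTI. Its values were 7.63, 7.72 and 7.76 in GGTI_48h, against 6.40, 6.64 and 6.66 in DMSO_48h (log2 1.14 ± 0.12, limma adjusted p = 5.08e-07). It still lay log2 -1.05 ± 0.12 from DMSO_0h (limma adjusted p = 4.2e-07). In FTI_48h Stat4 was at 7.02, 6.89 and 7.05, a difference of 0.42 ± 0.12 from DMSO_48h whose call (limma adjusted p = 0.0397) was lost whichever of the 6 arrays was left out.

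Runx3 separated the inhibitors too. It was at 8.78, 8.84 and 8.65 in FTI_48h, against 9.28, 9.53 and 9.48 in DMSO_48h, a difference of log2 -0.68 ± 0.16 (limma adjusted p = 0.0112). The call was lost without DMSO_48h replicate 2 or FTI_48h replicate 3. In GGTI_48h it was at 9.25, 9.11 and 9.46, which overlapped DMSO_48h (log2 -0.16 ± 0.16, 95% interval -0.49 to 0.17, limma adjusted p = 0.466). Cxcr3 was slightly higher in GGTI_48h (log2 0.33 ± 0.12, limma adjusted p = 0.0351), which 5 of the 6 single-array omissions took below the threshold. Hlx differed from DMSO_48h by log2 -0.02 with GGTI and -0.08 with FTI, neither past the test, with 95% intervals of -0.22 to 0.18 and -0.27 to 0.12.

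At 48 h limma therefore called 5 of the 9 genes lower and 2 higher with GGTI (40.3% of all genes were called, 21.9% lower and 18.4% higher) and 6 lower and 1 higher with FTI (7.66% of all genes, 3.08% lower and 4.58% higher). Both comparisons use the same 3 DMSO_48h arrays, so a high or low value there enters both. Without DMSO_48h replicate 2, and likewise without FTI_48h replicate 3, the FTI count was 4.

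At 18 h limma already called both T-box genes lower with each inhibitor, though some of these calls depended on single arrays and on the fit. Tbx21 was at 5.96 and 5.30 in GGTI_18h and at 6.27, 6.81 and 7.08 in FTI_18h, against 7.51, 7.89 and 8.04 in DMSO_18h. All inhibitor arrays lay below all DMSO arrays, and all GGTI arrays below all FTI arrays. The differences from DMSO_18h were log2 -2.18 ± 0.31 with GGTI (limma adjusted p = 0.000396) and -1.10 ± 0.27 with FTI (limma adjusted p = 0.0346). The FTI call was lost without DMSO_18h replicate 2 or 3 or FTI_18h replicate 1 or 2, and also in a fit of the 6 compared arrays alone (limma adjusted p = 0.0737).

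Eomes was at 5.34 and 5.21 in GGTI_18h and at 4.88, 5.13 and 5.40 in FTI_18h, against 5.91, 6.58 and 6.25 in DMSO_18h. The groups with an inhibitor overlapped each other and lay below DMSO_18h. Their means were at or near the negative-control medians, and the DMSO_18h values exceeded only 61.1 to 75% of the negative-control probe sets. The sizes below are thus bounded by background. The differences were log2 -0.97 ± 0.23 with GGTI (limma adjusted p = 0.0188) and -1.11 ± 0.21 with FTI (limma adjusted p = 0.00728). The GGTI call was lost without either GGTI_18h array or DMSO_18h replicate 2, and both were lost when only the compared arrays were fitted (limma adjusted p = 0.061 with GGTI and 0.0555 with FTI).

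Il12rb1 was the third gene called with GGTI at 18 h, at 7.67 and 7.88 in GGTI_18h, against 8.45, 8.73 and 8.73 in DMSO_18h (log2 -0.86 ± 0.18, limma adjusted p = 0.00916). The call rested on GGTI_18h replicate 1. In all, 3 of 9 genes were lower with GGTI (5.94% of all genes called, 2.08% lower and 3.86% higher) and 2 of 9 with FTI (3.30% of all genes, 0.682% lower and 2.62% higher), and these comparisons share the DMSO_18h arrays. Runx3, Hlx, Ifng, Cxcr3, Il12rb2 and Stat4 differed by 0.50 or less in size with either inhibitor at 18 h, and none of the 6 passed the test.

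**Figure D2:**
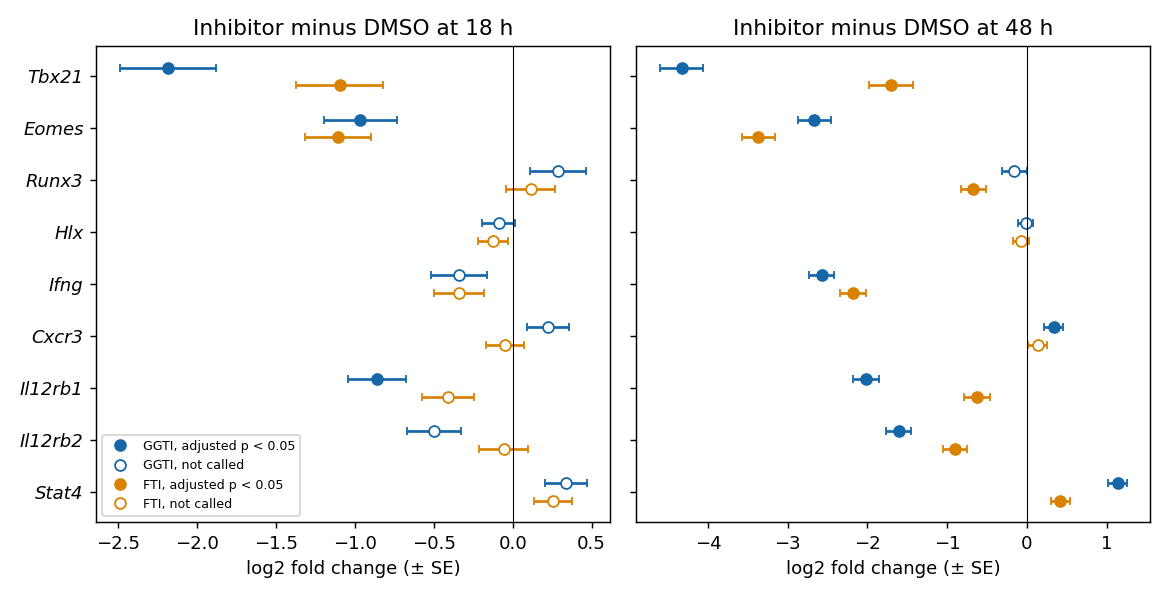
Log2 fold change of each gene with GGTI (blue) and FTI (orange) over DMSO of the same time, at 18 h on the left and 48 h on the right, with standard errors from limma and filled points for an adjusted p under 0.05; the 2 panels have different scales. At 48 h Tbx21 stands at -4.33 with GGTI and -1.71 with FTI, and Eomes at -2.67 and -3.37, while Stat4 lies to the right of 0 with both.

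The inhibitors were then set against each other. At 48 h GGTI arrays were lower than FTI arrays for Tbx21 (log2 -2.62 ± 0.27, limma adjusted p = 9.44e-07), Il12rb1 (-1.39 ± 0.17, limma adjusted p = 3.87e-06) and Il12rb2 (-0.71 ± 0.15, limma adjusted p = 0.00172). They were higher for Stat4 (log2 0.72 ± 0.12, limma adjusted p = 0.00017), Eomes (0.70 ± 0.21, limma adjusted p = 0.0159) and Runx3 (0.52 ± 0.16, limma adjusted p = 0.0182). These 6 called genes compare with 27.5% of all genes, 13.9% lower and 13.6% higher. The Eomes difference lies near background: with values raised to each array's negative-control median it was 0.34 and did not pass (limma adjusted p = 0.135), and it was also lost without FTI_48h replicate 1 or GGTI_48h replicate 3. The Runx3 call was lost without FTI_48h replicate 3 or GGTI_48h replicate 3.

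At 18 h limma called 0 of the 9 genes between GGTI and FTI (2.29% of all genes called, 0.923% lower and 1.36% higher), and 3 had an unadjusted p under 0.05. Tbx21 was lowest with GGTI at log2 -1.09, with a 95% interval of -1.73 to -0.44 (limma adjusted p = 0.0726). For Eomes the difference was log2 0.14 with a 95% interval of -0.35 to 0.63. The Tbx21 call appeared with values raised to the negative-control median (limma adjusted p = 0.0376).

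Within each array, Tbx21 minus Eomes was lower with GGTI than with FTI by log2 -1.23 at 18 h and -3.33 at 48 h. With values raised to the negative-control median the mean over both times was -1.92, against -2.28 as deposited. Eomes was at or near background on the arrays with an inhibitor, so this difference largely follows Tbx21, and it is given as a description with no test.

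**Figure D3:**
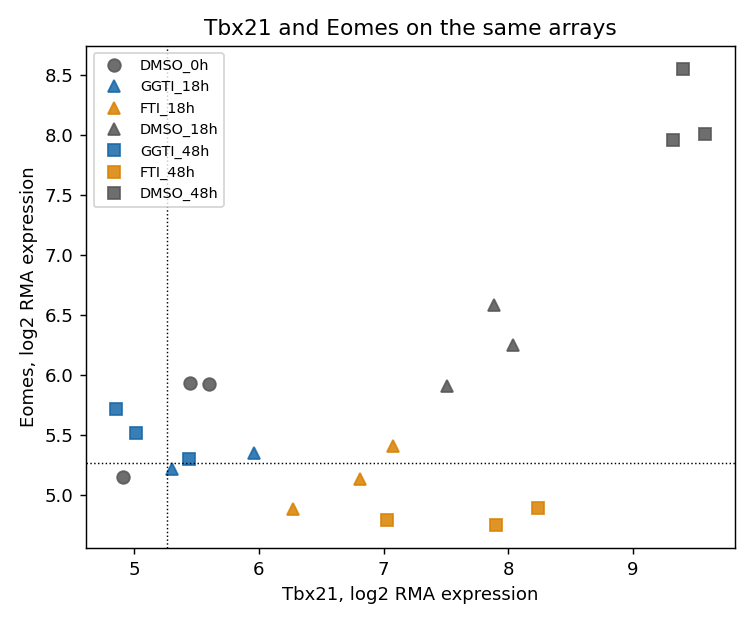
Log2 RMA expression of Tbx21 (horizontal) and Eomes (vertical) with 1 point per array, colour for the treatment, shape for the time, and dotted lines at the mean negative-control median of the 20 arrays. The 3 DMSO_48h arrays stand alone at the upper right, FTI_48h arrays keep Tbx21 at 7.03 to 8.24 with Eomes at 4.74 to 4.89, and GGTI_48h arrays have Tbx21 at 4.85 to 5.44.

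The course from 18 to 48 h also differed with an inhibitor present. With FTI, Tbx21 rose by log2 1.01 ± 0.27 between the times (limma adjusted p = 0.0158) and Il12rb2 by 0.98 ± 0.15 (limma adjusted p = 0.000151), while Stat4 changed by -0.47 ± 0.12 (limma adjusted p = 0.00994). The Tbx21 call was lost without FTI_18h replicate 1, FTI_48h replicate 1 or FTI_48h replicate 2, and without the last the member count was 1 of 9. With GGTI, Il12rb2 rose by log2 0.71 ± 0.17 (limma adjusted p = 0.00611) and Runx3 by 0.62 ± 0.17 (limma adjusted p = 0.0167), and Il12rb1 changed by -0.83 ± 0.18 (limma adjusted p = 0.00323). The called genes were 3 of 9 with FTI (16.6% of all genes, 9.49% higher and 7.13% lower) and 3 of 9 with GGTI (21.8% of all genes, 12.6% higher and 9.18% lower). GGTI_18h has 2 arrays, and the Runx3 call was lost without its replicate 1 or without GGTI_48h replicate 3, and the Il12rb2 call without GGTI_18h replicate 2.

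Whether an inhibitor's effect at 48 h differed from its effect at 18 h was tested as an interaction. With GGTI the effect was more negative at 48 h for 5 of the 9 genes, Tbx21, Eomes, Ifng, Il12rb1 and Il12rb2, and more positive for Stat4 (9.51% of all genes called, 4.54% lower and 4.97% higher). With FTI it was more negative for Eomes and Ifng (0.433% of all genes called, 0.273% lower and 0.160% higher). Ifng was below the negative-control medians with either inhibitor at both times, as was Eomes with FTI, and Eomes was near them with GGTI. With GGTI, Tbx21 averaged 5.63 at 18 h, against a negative-control level of 5.17, and 5.10 at 48 h, against 5.28. The effects on these 3 genes are thus bounded by background, and the DMSO rise from 18 to 48 h enters them directly. For Tbx21 with FTI the difference of effects was log2 -0.61 ± 0.39, with a 95% interval of -1.43 to 0.20 (limma adjusted p = 0.694).

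Against the unstimulated cells, GGTI_48h was higher for Runx3 (log2 0.72 ± 0.16), Il12rb1 and Il12rb2 (0.79 ± 0.15) and lower for Stat4 and Hlx (-0.39 ± 0.09), which makes 5 of 9 genes where 68.0% of all genes were called, 36.2% higher and 31.9% lower. FTI_48h was higher for Tbx21, Il12rb1 (log2 2.63 ± 0.17) and Il12rb2 (1.498 ± 0.15) and lower for Eomes, Stat4 (-1.77 ± 0.12), Hlx (-0.45 ± 0.09) and Cxcr3 (-0.30 ± 0.12), 7 of 9 genes (69.8% of all genes, 36.9% higher and 32.9% lower). The limma adjusted p was 0.000519 for Runx3 and 0.00136 for Hlx in GGTI_48h, 0.0356 for Cxcr3 in FTI_48h and smaller for the other genes without a p above. The Cxcr3 call was lost without DMSO_0h replicate 1, FTI_48h replicate 1 or FTI_48h replicate 3. Tbx21 and Il12rb1 were at or near background in DMSO_0h, so their rises over it are lower bounds in size.

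Around the 9 genes, a list of 18 genes of the interleukin-12, interleukin-18 and interferon-gamma pathway was read, of which 12 were tested. In GGTI_48h 8 of the 12 were higher and 3 lower than in DMSO_48h, and in FTI_48h 3 were higher and 2 lower. Over all genes, 18.4% were higher and 21.9% lower with GGTI, and 4.58% higher and 3.08% lower with FTI. The medians of the 12 were log2 0.36 with GGTI and 0.04 with FTI, beside all-gene medians of -0.01 and 0.00. Irf8, an interferon-induced transcription factor, was lower with GGTI by log2 -3.14 ± 0.15 (limma adjusted p = 3.19e-11) and with FTI by -1.25 ± 0.15 (limma adjusted p = 3.3e-05). Irf1, another interferon-gamma target, was lower with both (log2 -0.93 ± 0.13 with GGTI and -0.65 ± 0.13 with FTI).

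The receptor chain gene Ifngr2, by contrast, was higher with GGTI (log2 1.20 ± 0.07) and with FTI (0.97 ± 0.07) at 48 h. It had fallen in DMSO culture by log2 -1.58 ± 0.07 from 0 to 48 h (limma adjusted p = 6.79e-13). Il18r1, a receptor chain for interleukin-18, averaged 9.17 in GGTI_48h and 6.92 in FTI_48h, a difference of log2 2.25 ± 0.49 (limma adjusted p = 0.00182). The ligand genes Il12a, Il12b, Il18 and Il27 did not pass the filter and averaged 6.04 or less in every group. At 18 h Irf8 was lower with GGTI (log2 -1.10 ± 0.17, limma adjusted p = 0.000761) and with FTI (-0.98 ± 0.15, limma adjusted p = 0.00252).

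Of 25 effector genes that T-bet and Eomes are known to regulate or accompany, 18 were tested. In DMSO_48h 12 were higher and 0 lower than in DMSO_0h, with a median of log2 1.41 (38.5% and 36.2% of all genes were higher and lower). In GGTI_48h 11 were lower and 2 higher than in DMSO_48h (21.9% and 18.4% of all genes), with a median of -0.73. In FTI_48h 9 were lower and 0 higher (3.08% and 4.58% of all genes), with a median of -0.45. Leaving out each compared array in turn gave 12 to 13 called genes with GGTI and 7 to 8 with FTI. Part of this list was known to change in these data when it was drawn up, so its direction is not independent evidence. Some of the 18, such as Prf1 and Il10, had means above the array medians only in 48 h groups. The filter on dim probe sets kept such genes where they were high, so the counts share that selection.

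The chemokine genes Ccl3 and Ccl4 had the largest differences of the 18 effector genes with GGTI at 48 h, while Slamf7 had the largest with FTI. Ccl3 averaged 4.89 in GGTI_48h and 9.13 in FTI_48h, against 10.28 in DMSO_48h, and differed between GGTI and FTI by log2 -4.23 ± 0.22 (limma adjusted p = 2.23e-10). Ccl4 averaged 5.52 in GGTI_48h and 8.30 in FTI_48h, against 9.68 in DMSO_48h (GGTI minus FTI log2 -2.77 ± 0.20, limma adjusted p = 1.22e-08). In GGTI_48h Ccl3 was below the negative-control level of 5.28 and Ccl4 near it, so their differences from GGTI_48h are lower bounds in size. Nkg7, a cytotoxic granule gene, averaged 7.24 in GGTI_48h and 9.57 in FTI_48h, against 10.71 in DMSO_48h. For these 3 genes FTI_48h stood between the other groups, as it did for Tbx21.

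Slamf7, a surface receptor of cytotoxic lymphocytes, and Prf1, which encodes the pore protein perforin, were also lower. Slamf7 averaged 4.92 in GGTI_48h and 5.92 in FTI_48h, against 8.26 in DMSO_48h, with log2 -3.34 ± 0.16 for GGTI and -2.33 ± 0.16 for FTI (limma adjusted p = 3.47e-11 and 5.82e-08). Prf1 differed from DMSO_48h by log2 -1.14 ± 0.16 with FTI (limma adjusted p = 0.000174). Its mean was 6.125 in DMSO_48h, the only group where it exceeded the array medians, and 4.98 to 5.40 elsewhere. This p-value is therefore not independent of the filter. The FTI_48h mean of 4.98 was below the negative-control level of 5.17, so the size is a lower bound. Il10, the gene of a suppressive cytokine, averaged 4.62 in GGTI_48h and 6.45 in FTI_48h (log2 -1.82 ± 0.20, limma adjusted p = 1.3e-06). Slamf7 and Il10 were below the negative-control level of 5.28 in GGTI_48h, so their differences from that group are lower bounds in size. Between GGTI and FTI at 48 h 8 of the 18 effector genes were lower and 3 higher (13.9% and 13.6% of all genes). Among genes with higher means in GGTI_48h, Id2 averaged 8.45 there, 7.92 in FTI_48h and 7.72 in DMSO_48h. Prdm1 averaged 7.68, 6.93 and 7.22 in the same groups.

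**Figure D4:**
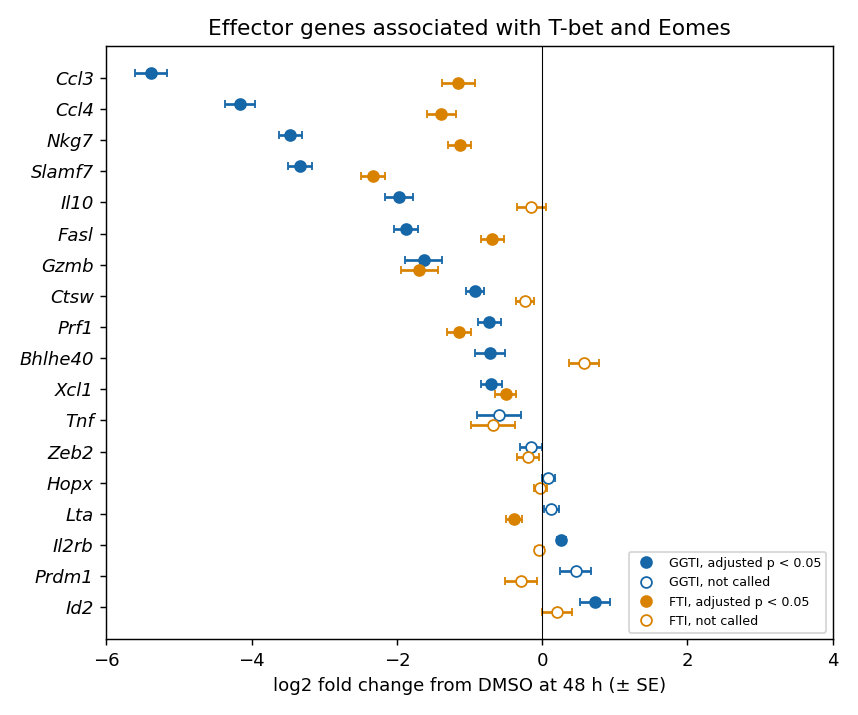
Log2 fold change over DMSO at 48 h of the 18 tested effector genes with GGTI (blue) and FTI (orange), ordered by the GGTI value, with standard errors from limma and filled points for an adjusted p under 0.05. Ccl3 lies at -5.39 with GGTI, a size bounded by background in GGTI_48h, and 11 genes are lower with GGTI and 9 with FTI.

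Among 27 relatives of the members (other T-box, Runx and Stat genes, related chemokine receptors and receptor chains), 16 were tested. In GGTI_48h 5 were higher and 2 lower than in DMSO_48h, a share near the 40.3% of all genes called there. In FTI_48h 3 were higher and 2 lower (7.66% of all genes called). The medians were log2 -0.03 with GGTI and 0.01 with FTI. The FTI count of 5 was 1 to 5 when each compared array was left out. Cxcr5, a receptor for entry into B cell follicles, was lower with GGTI by log2 -1.92 ± 0.16 (limma adjusted p = 2.12e-08). Cxcr4 was higher by 1.71 ± 0.17 (limma adjusted p = 2.09e-07) and Il6ra, the interleukin-6 receptor gene, by 1.60 ± 0.12 (limma adjusted p = 8.73e-09). Stat3 was lower by log2 -0.55 ± 0.08 (limma adjusted p = 1.22e-05).

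Of 19 regulators of other helper lineages, 15 were tested, and in GGTI_48h 8 were higher and 3 lower than in DMSO_48h (18.4% and 21.9% of all genes). In FTI_48h 3 were higher and 0 lower (4.58% and 3.08% of all genes), and 1 to 3 were called when each compared array was left out. Lef1 and Tcf7, factors of resting T cells, were higher with GGTI by log2 0.83 ± 0.07 and 0.72 ± 0.09 and with FTI by 0.31 ± 0.07 and 0.59 ± 0.09. The FTI call of Lef1 was lost without DMSO_48h replicate 2, FTI_48h replicate 1 or FTI_48h replicate 3. Batf, a factor of activated T cells, was higher with GGTI (log2 0.81 ± 0.07, limma adjusted p = 7.58e-08), and Bach2, which restrains effector genes, was lower (-0.66 ± 0.08, limma adjusted p = 4.9e-06). Gata3, the Th2 master factor, averaged 10.15 to 10.33 in all 7 groups.

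For each member the genes with the highest Pearson r over the group means were taken from 1668 genes whose 7 means had an SD of at least 0.5. Closest to Tbx21 were Ccl1, a chemokine (Pearson r = 0.97), Nek6, Plaur and Ccl4 (0.95 to 0.96). Closest to Eomes were Ch25h (0.94), Spp1, Sema7a and Tbkbp1, and closest to Ifng were Spp1 (0.99), Ch25h, Tbkbp1 and Cldnd2. Spp1, which encodes osteopontin, averaged 7.43 in DMSO_48h and 4.87 to 5.17 in the other 6 groups, the same single high group as Ifng. The other 6 means of both genes were at or near background, so their r rests mainly on DMSO_48h. Il12rb1 was closest to Nol10 and Rrp8 (both 0.997), genes of ribosome production, with Clpp (0.9961) and Tomm40 (0.9955) next to them. Il12rb2 was closest to Nedd4 (0.98), Slc19a2, Serpine2 and Tnfrsf10b. Between the members, r was 0.93 for Eomes with Ifng, which also rests largely on DMSO_48h, and 0.66 for Tbx21 with Eomes. These are descriptions over 7 means from one normalization.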

How the data were processed

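Gene expression was measured on 20 Affymetrix mouse arrays. Per the labels' protocols, 1 to 20 ng of RNA went into the NuGEN amplification (WTA Pico v2) and the product was labelled by the Encore Biotin system. The deposited values are log2 expression that the authors made with RMA in Affymetrix Expression Console 1.1, per the submitters' processing notes. RMA corrects background and gives all arrays 1 distribution, so a shift of most genes cannot be seen. Both deposited tables of these arrays hold the same values within 1.8e-15. Of 28846 probe sets, 22202 carry exactly 1 gene symbol, 20468 matched a reference table by accession and 911 symbols were updated. The number of arrays limits the precision.

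Replicate numbers follow accession order and are names only. Probe sets above their array's median on at least 2 arrays were kept, with the probe set of highest mean per symbol. limma 3.58.1 in R 4.3.3 was fitted with 7 group means on all arrays (13 residual and 4.98 prior degrees of freedom), with 2-sided tests and Benjamini-Hochberg adjustment over 12462 genes per comparison at 0.05, and was tested on simulated data. Intervals are 95% intervals of the fit. A group mean at or below its negative-control median is called background. Alternatives were no filter, median centring, trend and robust variances, array weights, a floor at the negative-control median, averaged probe sets, only the groups compared, and each array left out. The members and gene lists were chosen with earlier results of these data known. All 9 members were named, with the 4 genes most like each by Pearson r. Those of Runx3, Hlx, Cxcr3 and Stat4 are not reported here. From each list, at most the 4 genes with the smallest p in a comparison were named, with their levels in other groups. The ligand genes Il12a, Il12b, Il18 and Il27, the factor gene Gata3 and the effector genes Id2 and Prdm1 were named after their values were seen. Some list genes are not reported here. No probe set coordinates were used here.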

Additional observations from a re-analysis of the deposited data

Results flagged for a closer look

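For 8 combinations of gene and inhibitor, the inhibitor's effect differed between the 2 times, by limma's interaction of inhibitor and time, as the effect over DMSO at 48 h minus that at 18 h. With GGTI this was log2 -2.15 ± 0.41 for Tbx21 (limma adjusted p = 0.00223), -1.70 ± 0.31 for Eomes (0.00155), -2.23 ± 0.24 for Ifng (7.22e-06), -1.16 ± 0.25 for Il12rb1 (0.00524), -1.11 ± 0.23 for Il12rb2 (0.00394) and 0.80 ± 0.18 for Stat4 (0.00769). With FTI it was log2 -2.26 ± 0.29 for Eomes (limma adjusted p = 0.000591) and -1.84 ± 0.22 for Ifng (0.000285). Ifng was below the negative controls at 18 h with and without an inhibitor, so its effect could show at 48 h alone. Eomes was below these controls in both FTI groups and near them in both GGTI groups. Tbx21 was near these controls in GGTI_18h and below their median in GGTI_48h. The Eomes values and the GGTI value of Tbx21 are thus bounded by background too, and the DMSO rise enters them directly. Of the 9 genes, 6 were called with GGTI and 2 to 3 with FTI whichever array was left out. No sample group has over 3 arrays, so single arrays were not screened for outlying values.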

How the results depend on the processing

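No paired analysis was possible because the labels carry no replicate numbers. Of 135 results on single members, 71 passed the test, 55 of these kept direction and call under every alternative, and 0 of the 71 reversed. With FTI at 18 h the 2 called members became 1 with no filter, 1 with array weights and 0 with only the groups compared. Between GGTI and FTI at 18 h the count of 0 became 1 with a floor at the negative-control median. Leaving out each array gave 1 to 2 members with FTI at 18 h, 1 to 3 with GGTI at 18 h (1 without GGTI_18h replicate 1), 4 to 6 with FTI at 48 h, 0 to 1 between GGTI and FTI at 18 h (1 without FTI_18h replicate 1) and 1 to 3 from 18 to 48 h with FTI. The other changes of sign were of values not past the test as reported. With the floor, Ifng was at -0.4651 in DMSO_18h over DMSO_0h, 0.0512 in FTI_18h over DMSO_18h, 0.1061 in GGTI_48h over FTI_48h, -0.0516 in FTI_48h over FTI_18h, 0.1097 in GGTI_48h over GGTI_18h and -0.4655 in FTI_48h over DMSO_0h, where the floor itself sets the level. Cxcr3 in FTI_48h over FTI_18h was 0.0237 when centred and 0.0011 with array weights, and Hlx in the FTI interaction was -0.0111 when centred.

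Leaving out each array gave ranges across 0 for Runx3 (-0.0238 to 0.3151), Cxcr3 (-0.1763 to 0.0567) and Il12rb2 (-0.1731 to 0.0426) in FTI_18h over DMSO_18h, and for Hlx in FTI_48h (-0.1749 to 0.0101) and GGTI_48h (-0.1162 to 0.0688) over DMSO_48h. It did so in GGTI_18h over FTI_18h for Hlx (-0.0477 to 0.1165) and Ifng (-0.1366 to 0.0840), in FTI_48h over FTI_18h for Ifng (-0.0101 to 0.2284) and Cxcr3 (-0.0504 to 0.0333), and in GGTI_48h over GGTI_18h for Cxcr3 (-0.2390 to 0.0752). Against DMSO_0h it did so for Ifng in FTI_48h (-0.0220 to 0.1646) and Cxcr3 in GGTI_48h (-0.1758 to 0.0279), and in the interactions for Hlx with FTI (-0.0511 to 0.1338), Hlx with GGTI (-0.0269 to 0.1581) and Cxcr3 with GGTI (-0.0473 to 0.2669). The cause was not tested.

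Counts over all genes moved more. With FTI at 18 h 411 genes were called, 183 with no filter, 36 with only the groups compared and 151 to 428 without single arrays. With GGTI at 18 h the counts were 740, 443, 130 and 201 to 710. With FTI at 48 h 955 were called, 2124 with array weights and 524 to 769 without single arrays. Between GGTI and FTI at 18 h they were 285, 436 with weights, 69 with only the groups compared and 70 to 209. For the FTI interaction they were 54, 85 with trend and robust variances, 87 with weights and 28 to 61. Without single arrays, 2280 to 3678 were called in DMSO_48h over DMSO_18h (3623 with all), 1343 to 2400 in GGTI_48h over GGTI_18h (2716 with all) and 691 to 1236 in the GGTI interaction (1185 with all). Centring gave 2923 higher and 839 lower in DMSO_48h over DMSO_18h (2047 and 1576 as deposited), 386 and 545 in FTI_48h over DMSO_48h (571 and 384), 2015 and 671 in GGTI_48h over GGTI_18h (1572 and 1144), and 10 and 39 in the FTI interaction (20 and 34). Signal over background limits Ifng, Eomes, low Tbx21 values, Il12rb1 in DMSO_0h and the effector genes named above as dim. The 18 h comparisons rest on 2 to 3 arrays.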
